A study of Mus musculus with 3 samples.

Results

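The cell cycle genes described here are 42 listed genes of 32285 gene rows in the deposited matrices, and all 42 were found by symbol. They fall into 17 genes of S phase, in which DNA is copied, 23 genes of G2 and M phase, in which the cell prepares to divide and divides, and 2 regulators of the G1 phase before them, Ccnd1 and Cdkn1a. The members were chosen by gene name, and the rule used no value measured in these libraries, although earlier results of these data were known. The libraries hold single cells of the callus, the repair tissue around a broken bone, taken on day 7 after the midshaft femur of female C3H/HeJ mice had been pinned and fractured. All mice were 9 weeks old and of a strain that the submitters call slow to heal, and all were injected under the skin every day. The vehicle control received PBS, the PTH group received the parathyroid hormone fragment PTH 1-34 at 100 μg/kg, and the YKL group received the inhibitor of salt-inducible kinases YKL-05-099 at 15 mg/kg. Each group is 1 library, and the labels do not say how many mice went into it. The question addressed here is which callus cells carried cell cycle transcripts, how S stood to G2/M, and how the 3 libraries compared. With 1 library per group no difference has a replicate check, no test between groups was made, and differences are given as values only.

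A cell that enters the cycle builds cyclin D with its kinases in G1, and p21, the product of Cdkn1a, holds cyclin-dependent kinases back. S phase then needs the MCM helicase (Mcm2 to Mcm7), its loaders Cdc6 and Cdt1, the sliding clamp PCNA, and the enzymes that make deoxynucleotides (Rrm1, Rrm2, Tyms). In G2 and M the cyclins A and B act with Cdk1, and topoisomerase II untangles the chromosomes. Kinesins, Aurora and Polo kinases and the chromosomal passenger protein survivin (Birc5) build the spindle and part the cells. The APC/C with Cdc20 and Ube2c destroys the cyclins. In cartilage, columnar chondrocytes divide, and they leave the cycle as they become hypertrophic and make type X collagen. Transcription of S genes is known to run through E2F factors, and that of G2/M genes through the DREAM and MuvB complexes at CHR elements and NF-Y at CCAAT boxes.

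The promoters of the members showed that division in their CHR and E2F words, and less in CCAAT. RefSeq promoters of 300 bases (250 before to 50 after the start site, GRCm38.p6) were at hand for 35 of the 42 members. The CHR word TTTGAA, read on both strands, was found in 15 of 20 G2/M promoters and in 1 of 14 S promoters, against 18.1% of 27025 promoters of all genes. The word CCAAT was found in 18 of 20 G2/M and 9 of 14 S promoters, against 37.9% of all. Both words stood in the same promoter in 15 of 20 G2/M members and in 7.12% of all genes. The E2F words TTTGGCGC, TTTCGCGC, TTTCCCGC and TTTGCCGC were found in 7 of 14 S promoters and in 1 of 20 G2/M promoters, against 2.32% of all. In listed cycle genes outside the 42 the division was weaker. CHR words stood in 36 of 63 G2/M and 9 of 34 S promoters, and E2F words in 6 and 8 of them. CCAAT stood in 44 and 22 of them, and in 12 of 17 promoters of listed arrest genes. CCAAT and E2F words were read on both strands too, and words that overlap were counted separately, as for 2 of the 3 E2F words of Mcm6. Below are the 160 bases before the start site of the S and G2/M members with most UMIs, printed 5′ to 3′ on the gene's strand with the matched words in capitals, because they show the CHR and CCAAT words of G2/M genes beside the E2F words of an MCM gene.
Ube2c, chr2:164769769-164769928, plus strand: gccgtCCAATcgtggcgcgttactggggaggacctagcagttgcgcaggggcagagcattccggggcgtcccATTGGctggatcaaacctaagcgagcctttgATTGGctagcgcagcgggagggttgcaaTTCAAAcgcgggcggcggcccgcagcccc
Top2a, chr11:99024190-99024349, minus strand: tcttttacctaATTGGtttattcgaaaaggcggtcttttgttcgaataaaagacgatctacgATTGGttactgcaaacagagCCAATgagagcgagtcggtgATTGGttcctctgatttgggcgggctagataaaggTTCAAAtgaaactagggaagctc
Pcna, chr2:132253181-132253340, minus strand: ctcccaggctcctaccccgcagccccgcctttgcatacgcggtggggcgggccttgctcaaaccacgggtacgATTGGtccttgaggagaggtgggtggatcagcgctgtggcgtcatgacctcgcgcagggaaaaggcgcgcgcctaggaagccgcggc
Mcm6, chr1:128359706-128359865, minus strand: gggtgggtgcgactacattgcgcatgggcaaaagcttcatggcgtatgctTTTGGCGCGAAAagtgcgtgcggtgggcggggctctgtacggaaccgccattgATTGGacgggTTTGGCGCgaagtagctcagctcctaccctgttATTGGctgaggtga
The Ube2c window held 3 CCAAT words and 1 CHR word, and the Top2a window 4 and 1. The Mcm6 window held 3 E2F words, 2 CCAAT words and no CHR word, and the Pcna window held 1 CCAAT word and no CHR or E2F word. Birc5, a G2/M gene, had none of these words in its 300 bases. A matched word is a description of the letters and not a shown binding site.

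The libraries differed in size and depth. After cells with under 500 detected genes, over 10% mitochondrial UMIs (unique molecular identifiers, the counted transcripts) or a doublet mark were left out, 2900 control, 1908 PTH and 600 YKL cells remained, and their median UMIs were 11647, 12284 and 25686. Because a deeper cell shows more genes, each cell was thinned at random to 2000 UMIs before cells were counted, which left out 210, 92 and 38 shallower cells and kept 5068. The doublet caller marked 1.43%, 0.246% and 1.31% of barcodes, too few for droplet runs of this kind, so most doublets are taken to remain. The libraries shared 2 to 8 cell barcodes per pair, 1 of them between kept cells. Clusters were built without cycle genes, named by markers and called like the class they fit. The chondrocyte-like class held Col2a1 in 2443 of 2447 thinned cells without several cycle genes and in 43 of 43 with several. A cell is said here to carry several genes of a phase when at least 3 of its 17 S or 23 G2/M members had a UMI after thinning.

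The G2/M members were found together in few cells, and the S members were spread thinly over many. Of 5068 thinned cells, 163 carried several G2/M genes, 83 several S genes and 47 both. Few cells lay near the threshold for G2/M, where 355 cells had 1 G2/M member, 46 had 2, 15 had 3, 8 had 4 and 140 had 5 or more, up to 20 of the 23. For S, 930 cells had 1 member, 132 had 2, 35 had 3, 21 had 4 and 27 had 5 or more, with 9 of 17 the most. The cells with several G2/M genes held 84.8% of all G2/M UMIs at full depth, but the cells with several S genes held 18.0% of all S UMIs. Because the cells were chosen by these same members, both shares are a description.

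Single members showed the same contrast. Birc5 had a UMI in 113 of 156 cells that held at least 3 other G2/M members, and in 21 of 4525 cells that held no other. Top2a was found in 100 of 158 such cells and in 33 of 4537 without others, and Mki67, the classical proliferation marker, in 86 of 157 and 9 of 4513. Cenpa, the histone variant of the centromere, and Cdk1 had the highest shares of the G2/M members in cells with no other, 1.64% and 1.14%. Among S genes, Pcna was found in 37 of 75 cells with at least 3 other S members and also in 266 of 4189 cells with none, which is 6.35%. Mcm6 stood at 21 of 75 and 145 of 4068. Rrm2, the subunit of ribonucleotide reductase that is limited to S phase, kept closest to cycling cells among the abundant S genes, with 79.6% of its UMIs in cells with several S or G2/M genes, against 18.3% for Pcna and 17.3% for Mcm6. By this measure the G2/M members lay between 68.7% (Cenpa) and 94.97% (Hmmr). Unlike the counts beside other members, this measure chose its cells with the gene itself counted, so its values are a description.

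**Figure D1:**
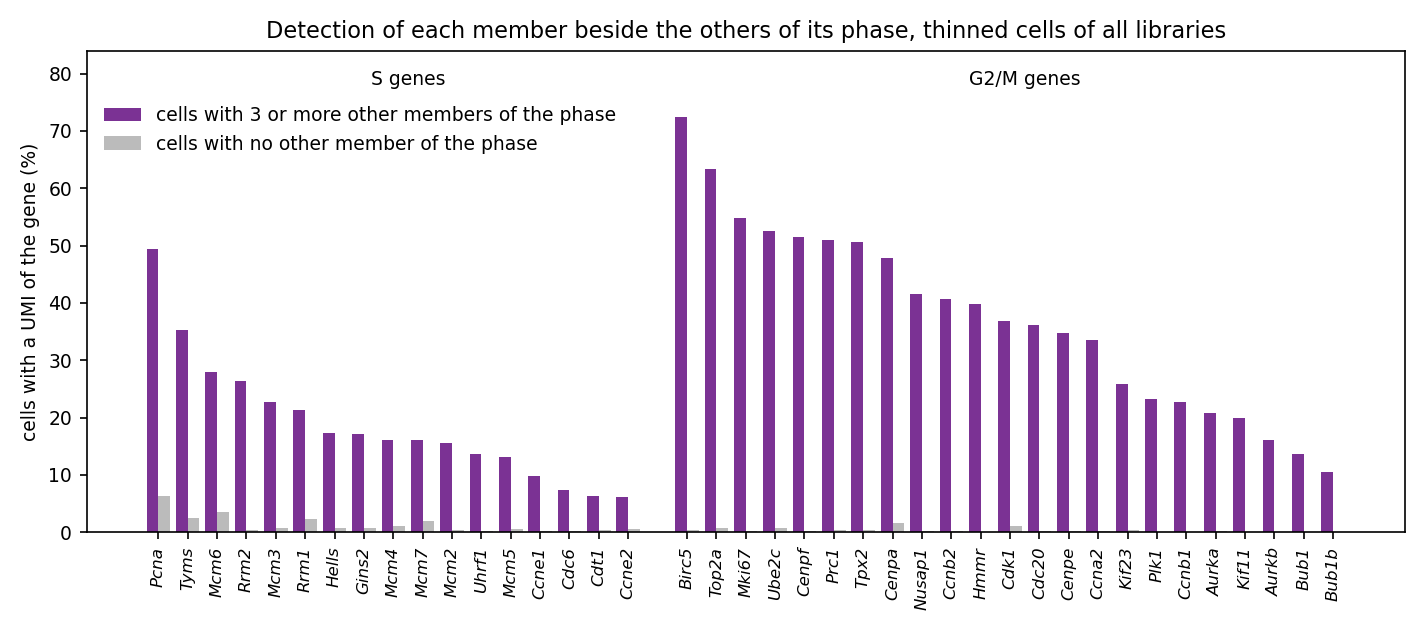
Share of thinned cells (all libraries, %) with a UMI of each member, in cells that hold at least 3 other members of its phase (purple) and in cells that hold none (grey). G2/M members such as Birc5 are near 0 in the grey bars, while Pcna (6.35%) and Mcm6 (3.56%) are not.

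Cells with several G2/M genes were far more frequent among macrophage- or osteoclast-like cells than among chondrocyte-like cells. Over the 3 libraries, 32 of 227 macrophage- or osteoclast-like cells carried several G2/M genes (14.1%, exact 95% interval 9.85 to 19.3%), as did 31 of 491 endothelial-like cells (6.31%, 4.33 to 8.84%). Among tendon-like cells, which came from the PTH library except for 1 cell, the count was 13 of 217 (5.99%, 3.23 to 10.0%). Neutrophil-like cells stood at 22 of 441 (4.99%), all 22 in the control library. Pericyte- or smooth muscle-like cells stood at 5 of 145 (3.45%) and fibroblast-like cells at 9 of 436 (2.06%). Of 2490 chondrocyte-like cells 37 carried several G2/M genes (1.49%, 1.05 to 2.04%), and because this class is large it held more of these cells than any other named class. Lymphoid T- or NK-like cells stood at 3 of 77 (3.90%). No Schwann-like cell of 63 did, which allows a share of up to 4.76% (here and below, 3 counts of the total where the count is 0), and none of 40 skeletal muscle-like and 24 B-like cells, which allows up to 7.5% and 12.5%. Such intervals and limits cover counting error only and not the spread between mice. Neighbours in this order from the endothelial- down to the chondrocyte-like class had overlapping intervals, and the pooled order mixes libraries in which the classes have different sizes. Within the control library the share ran from macrophage- or osteoclast-like (10.9%) through endothelial- (8.82%), neutrophil- (5.61%), pericyte- (2.56%) and fibroblast-like (1.75%) to chondrocyte-like cells (1.60%). Within the PTH library tendon-like cells (13 of 216, 6.02%) and pericyte-like cells (3 of 60, 5%) stood above endothelial-like cells (11 of 272, 4.04%), which turns the pooled order although the intervals overlap, while macrophage- or osteoclast-like cells (13.6%) were again above and fibroblast-like (2.30%) and chondrocyte-like cells (2%) below them, and none of 30 neutrophil-like cells passed.

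The background was read from cells that no longer divide. In the S100a9-led neutrophil-like cluster with Retnlg and Il1b among its leading genes, cells of mature type with a median of 2167 UMIs, 1 of 153 cells carried several G2/M genes (0.654%, 0.0166 to 3.59%) and 0 of 153 several S genes, which allows up to 1.96%. The chondrocyte-like share over all libraries was above this value, but the intervals overlap. Before thinning this neutrophil-like cluster had 273 cells, of which 240 came from the control library. Within the neutrophil-like class of the control, the cells lay in the cluster led by granule genes such as Camp, Ngp and Ltf (13 of 222) and in a smaller cluster led by Lyz2 and Plac8 that also carried monocyte markers (8 of 34).

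**Figure D2:**
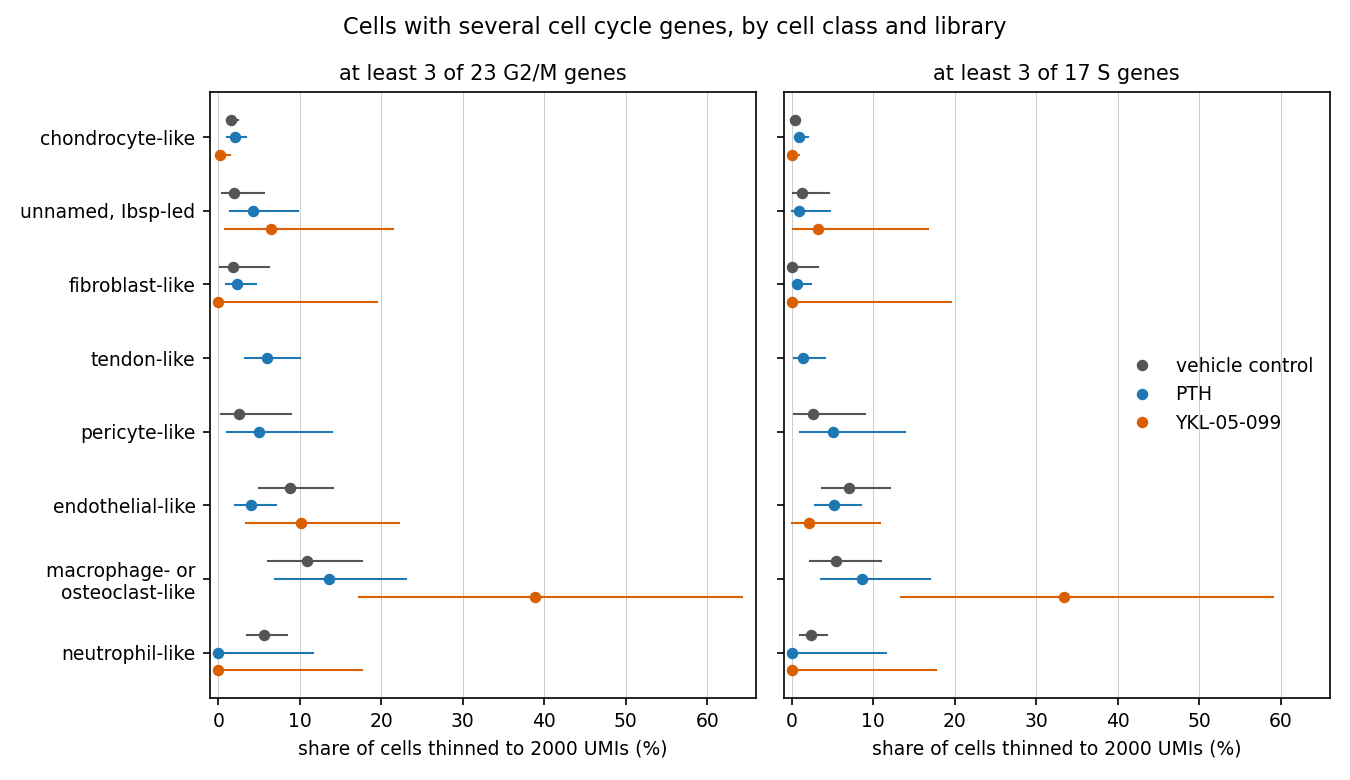
Share of thinned cells (%) with at least 3 G2/M genes (left) or 3 S genes (right) by cell class and library. Points are shares and lines exact 95% intervals for counting error, and groups under 15 thinned cells are left out. Chondrocyte-like cells lie near 0 in all libraries, and the YKL macrophage- or osteoclast-like point (38.9%) rests on 18 cells.

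The balance of S to G2/M differed between the classes. Endothelial-like cells had 27 cells with several S genes beside 31 with several G2/M genes, and pericyte-like cells 5 beside 5. Macrophage- or osteoclast-like cells had 20 beside 32, neutrophil-like cells 9 beside 22, chondrocyte-like cells 11 beside 37 and tendon-like cells 3 beside 13. By UMIs at full depth, G2/M members made up 61.8% of the S and G2/M UMIs in chondrocyte-like cells, 64.6% in endothelial-like, 69.2% in macrophage- or osteoclast-like and 80.9% in tendon-like cells. The order by UMIs was not the order by cells, so no order of the classes by balance is read from these values. In chondrocyte-like cells 17.2% of S UMIs lay in cells with several genes of either phase, against 71.4% in macrophage- or osteoclast-like and 74.4% in neutrophil-like cells, so the S UMIs of chondrocytes came mostly from cells that did not pass the count. Here too the cells were chosen by the members counted.

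In chondrocyte-like cells the libraries differed in G2/M members far more than in S members. Of 1440 thinned control cells, 23 carried several G2/M genes (1.60%, 1.02 to 2.39%), of 650 PTH cells 13 did (2%, 1.07 to 3.40%), and of 400 YKL cells 1 did (0.25%, 0.00633 to 1.38%). The YKL share was below the share in mature neutrophil-like cells, so these shares are not told apart, and the YKL interval overlaps that of both other libraries. The 1 YKL cell itself lay far above the limit, with 10 of the 23 G2/M members after thinning. Without thinning, where the YKL cells are deepest, the shares were 3.27%, 3.31% and 4.4%, so the YKL library was the lowest only after depth had been made equal. Several S genes were found in 5 control cells (0.347%), 6 PTH cells (0.923%) and 0 of 400 YKL cells, which allows up to 0.75%. In the summed UMIs of the class, S members stood at 127, 146 and 120 CPM (UMIs scaled to the total of the class) in control, PTH and YKL, and G2/M members at 235, 331 and 47.3 CPM. The G2/M share of the S and G2/M UMIs was 64.9%, 69.3% and 28.3%. Few cells made these sums: the cell with most G2/M UMIs held 7.54% of them in control, 15.4% in PTH and 41.9% in YKL. Without the cell with most S and G2/M UMIs in each library the G2/M shares were 63.3%, 65.97% and 18.8%. With at most 5% mitochondrial UMIs per cell, which kept 472, 196 and 153 thinned chondrocyte-like cells, several G2/M genes were found in 0.424%, 0% and 0.654% of cells and the G2/M share was 45.1%, 18.3% and 37.8%, so the order of the libraries turned.

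The abundant G2/M members were low in YKL chondrocytes as a group. Top2a, topoisomerase IIα, had 513 UMIs in 74 of 1467 control cells (20.6 CPM), 528 UMIs in 38 of 665 PTH cells (42.7 CPM) and 36 UMIs in 21 of 409 YKL cells (2.78 CPM). The PTH level was 2.07-fold the control (counting interval 1.83 to 2.34) and the YKL level 0.135-fold (0.0932 to 0.189). Ube2c, the ubiquitin carrier of the APC/C, had 22.3 CPM in the control (82 cells), 25.6 CPM in PTH (30 cells) and 3.62 CPM in YKL (25 cells). In the YKL cells these counts lay as 47 UMIs over 25 cells, where the control had 555 over 82. Birc5, survivin, stood at 18.5, 21.8 and 3.16 CPM, from 54, 22 and 18 cells. Cenpa stood at 26.7, 21.6 and 8.10 CPM, from 126, 63 and 65 cells, and was the G2/M member among these 4 that was lower in PTH than in the control, at 0.810-fold (0.6998 to 0.935). Counts from 1 cell are not independent, so the counting intervals of these genes are narrower than the true error.

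S members differed less between the libraries, and not all in 1 direction. Pcna, the replication clamp, had 874 UMIs in 588 control cells (35.2 CPM), 462 in 299 PTH cells (37.4 CPM) and 444 in 225 YKL cells (34.2 CPM). Tyms, thymidylate synthase, stood at 12.1, 13.1 and 9.02 CPM, and Rrm1 at 10.7, 15.2 and 7.86 CPM. Mcm6 was higher in YKL than in the control over the class, 31.8 against 21.0 CPM, a ratio of 1.52 (1.33 to 1.73), with PTH between at 24.4 CPM. Within the chondrocyte-like clusters described below this did not hold throughout. In the Col10a1-led cluster Mcm6 was nearly level, at 49.0, 52.0 and 54.9 CPM in control, PTH and YKL. In the cluster led by Ibsp and Panx3 YKL was lower than the control, 7.24 against 21.8 CPM. YKL was higher in the Col9a3-led (23.4 against 15.2 CPM) and Hapln1-led clusters (30.3 against 19.7 CPM), with overlapping intervals. Rrm2, chosen here after its values were seen, followed the G2/M pattern with 5.51, 11.7 and 2.70 CPM, and Hells, a chromatin remodeler also chosen so, stood at 3.70, 4.85 and 1.31 CPM.

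Counted over members with at least 50 UMIs in both libraries together, 12 of 23 G2/M and 2 of 15 S members were at least 1.5-fold higher in PTH than in the control, where 5.7% of all 11424 genes were, and 1 S member, Cdt1, and no G2/M member were at least 1.5-fold lower, where 3.36% of all genes were. The median log2 ratio was 0.63 for G2/M members, 0.19 for S members and -0.01 for all genes. The 12 included Mki67, Kif11, Aurka, Nusap1 and Kif23, chosen after their values were seen, with ratios of 1.99, 1.99, 1.96, 1.85 and 1.80. The G1 gene Ccnd1 also passed, at 1.52 (1.13 to 2.05). In YKL against the control, 23 of 23 G2/M and 4 of 15 S members were at least 1.5-fold lower, where 9.3% of 11457 genes were, and 1 S member, Mcm6, was higher, where 9.69% of genes were. Ccnd1 was lower, at 0.573-fold (0.374 to 0.858). Medians were -2.55 for G2/M, -0.33 for S and -0.03 for all genes. The lowest ratios with more than 3 YKL UMIs were those of Mki67 (0.0669) and Ccnb2 (0.0697), cyclin B2. In YKL against PTH, 20 of 20 G2/M and 3 of 12 S members were lower, where 7.24% of 10849 genes were, and none of the 34 members tested was higher, where 6.51% of genes were. The last 2 comparisons share the YKL library and the first 2 the control, so they are not independent. These ratio counts rest on UMIs of few cells. Thinned to 2000 UMIs per cell, 8, 4 and 3 members kept 50 UMIs in the 3 comparisons. Of the 8, 1 was higher and 0 lower in PTH than in the control, where 5.06% and 6.79% of all genes were. Of the 4, 1 was higher and 1 lower in YKL than in the control, where 9.03% and 13.1% were. Of the 3, 0 were higher and 0 lower in YKL than in PTH, where 7.69% and 8.14% were. The ratio counts also turned on which cells were kept. With at most 5% mitochondrial UMIs, 1 of 15 members was higher and 6 were lower in PTH than in the control, where 5.12% and 5.86% of all genes were, and 1 of 17 was higher and 2 were lower in YKL than in the control, where 7.23% and 6.94% were. With cycle genes kept in clustering, after which no cell of the class carried several G2/M genes, 3 of 23 members were higher and 2 lower in PTH than in the control, where 6.88% and 3.08% of genes were, and 3 were higher and 3 lower in YKL, where 9.71% and 8% were.

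**Figure D3:**
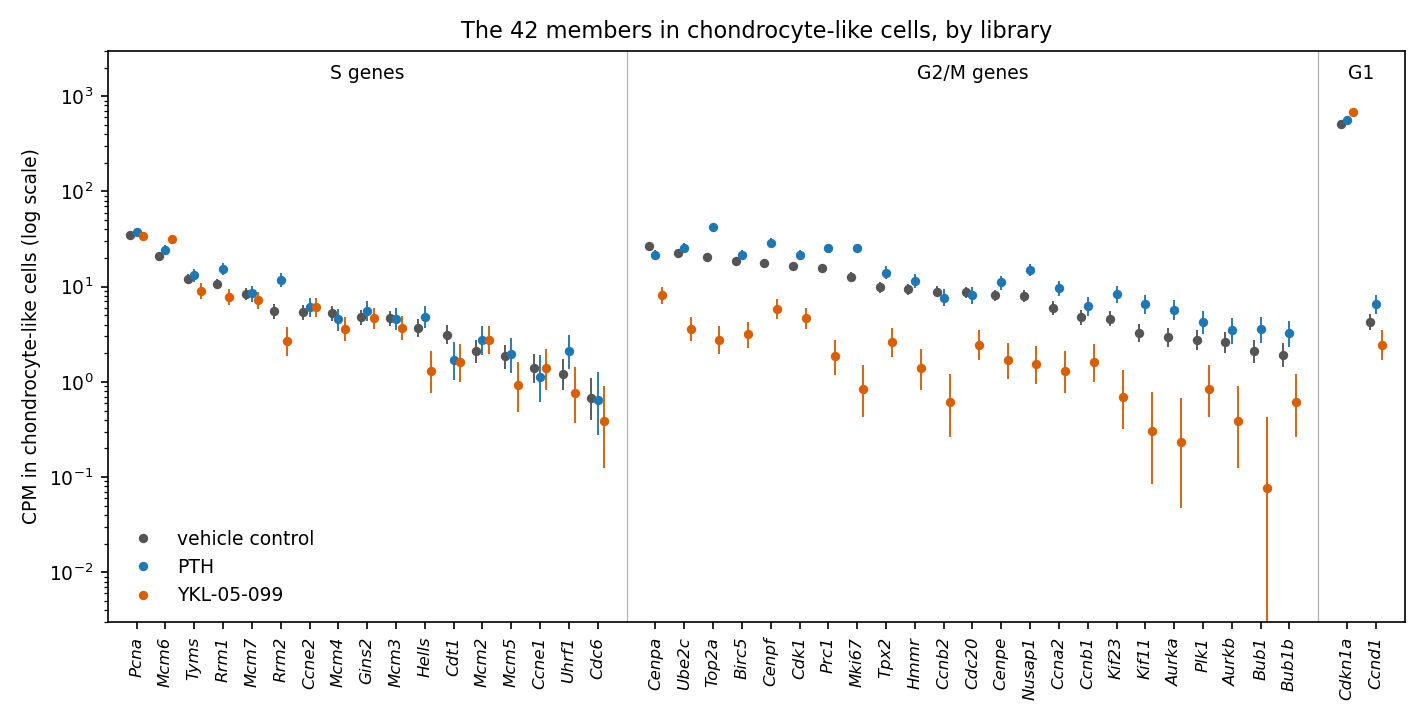
Level of each of the 42 members in chondrocyte-like cells (CPM, log axis) in the 3 libraries, ordered within a phase by the control level, with lines for exact 95% counting intervals. All 23 G2/M members lie lowest in YKL, while Pcna (35.2, 37.4 and 34.2 CPM) nearly coincides in the 3 libraries.

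Cycling chondrocytes lay mainly in 1 of the 6 chondrocyte-like clusters. The cluster led by Ucma and Mia held 28 of the 37 cells with several G2/M genes: 19 of 406 control cells (4.68%, 2.84 to 7.21%), 9 of 166 PTH cells (5.42%, 2.51 to 10.0%) and 0 of 4 YKL cells. The Col9a3-led cluster held 6 of them among 717 cells and the cluster led by Ibsp and Panx3 held 3 among 227. The Col10a1-led cluster, in which Ihh and Mmp13 also lead, had none among 162 control, 123 PTH and 153 YKL cells, and the other 2 clusters had none among 324 and 208 cells. Different clusters held most of the class in the libraries: the Col9a3-led and Ucma-led clusters in the control (36.7% and 27.8%) and in PTH (26.2% and 25.0%), and the Col10a1-led cluster and that led by 2610528A11Rik in YKL (37.9% and 21.0%), where the Ucma-led cluster took 0.978%. The clusters rest on genes that themselves differ between the libraries, so these sizes describe the makeup and do not show a difference in cell numbers. With the control's share of each cluster, the 400 YKL cells would hold 1.27 cells with several G2/M genes, where 1 was counted, and with the control's share of the whole class 6.39. The same reckoning gives 9.63 and 10.4 for PTH, where 13 were counted. Makeup by cluster and treatment cannot be told apart with 1 library per group. Left without the Ucma-led cluster, an alternative chosen after seeing the data, the shares were 0.387% in the control, 0.826% in PTH and 0.253% in YKL. There YKL lay at least 1.5-fold below the control in 13 of the 29 members tested, where it did in 6.79% of 11018 genes. It lay at least 1.5-fold above the control in 1 of the 29, where it did in 8.38% of genes.

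**Figure D4:**
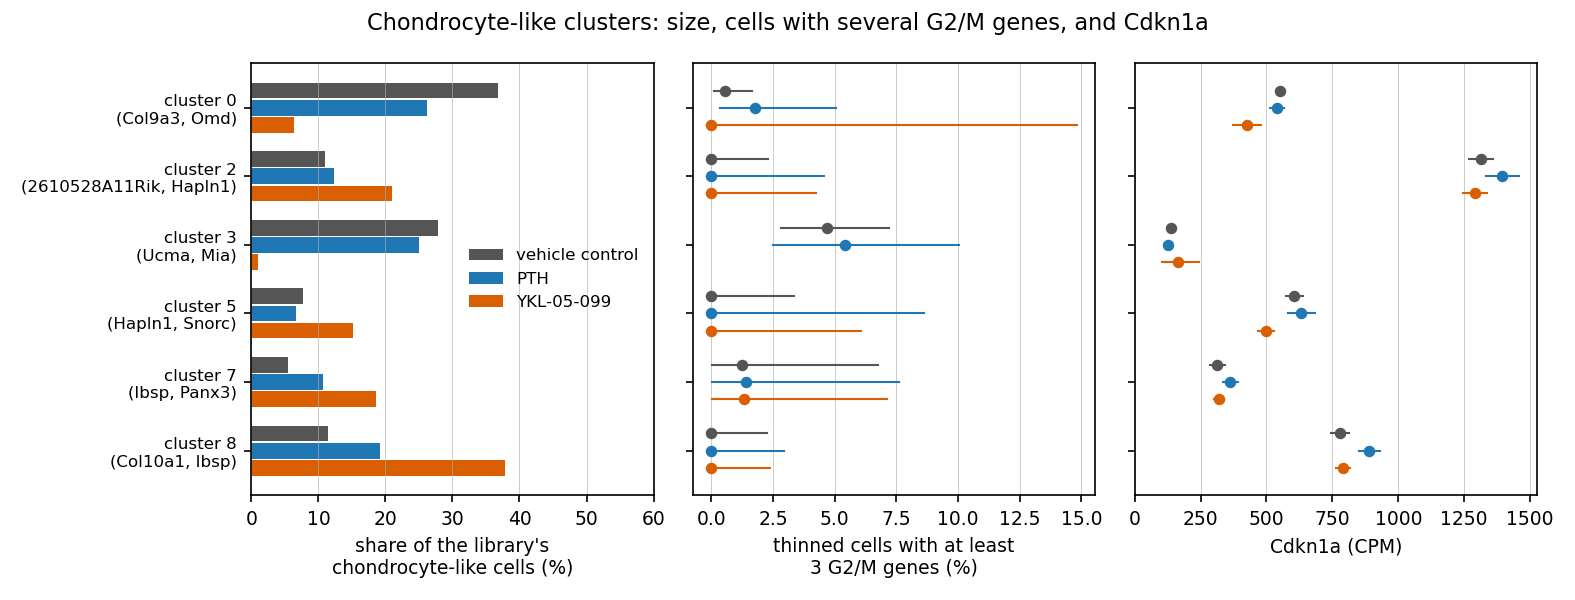
The 6 chondrocyte-like clusters, named by their 2 leading genes: share of the library's class in each (left, %), share of thinned cells with at least 3 G2/M genes with exact 95% intervals (middle, %; the 4 YKL cells of cluster 3 are left out), and Cdkn1a (right, CPM with counting intervals). The Ucma-led cluster has the highest share of such cells (4.68% and 5.42%) and the lowest Cdkn1a.

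The state of the cycling cells was also visible in single genes that took no part in choosing them. Ucma, a secreted protein of the upper growth plate, was found after thinning in 23 of 27 control chondrocytes with several S or G2/M genes (85.2%, 66.3 to 95.8%) and in 767 of 1413 of the rest (54.3%, 51.6 to 56.9%). In PTH the counts were 14 of 15 and 311 of 635 (49.0%). Col10a1 was found in 2 of 27 control cells with several genes (7.41%, 0.910 to 24.3%) against 476 of 1413 (33.7%), and in 0 of 15 PTH cells (exact interval 0 to 21.8%) against 235 of 635 (37.0%). The YKL cell had a UMI of both, in a library where Ucma was found in 72 of 399 other chondrocytes (18.0%) and Col10a1 in 268 (67.2%). These 2 genes were chosen after the clusters were seen. Markers of other cell types did not all lie on 1 side. In the cycling chondrocytes tendon markers summed to 128 CPM against 83.5 CPM in the rest, fibroblast or progenitor markers to 2247 against 1717 CPM and osteoclast markers to 70.2 against 58.4 CPM. Macrophage or monocyte markers summed to 2.51 against 6.25 CPM, neutrophil markers to 21.7 against 28.9 CPM, erythroid markers to 622 against 1536 CPM and endothelial markers to 15.0 against 14.6 CPM. These sums pool the libraries, and YKL gave 1 of the 43 cycling cells and 399 of the 2447 others. Within PTH tendon (114 against 147 CPM), neutrophil (22.8 against 9.91 CPM) and endothelial markers (13.7 against 17.9 CPM) went the other way. In the control these did not turn, and the other marker sets turned in neither library. The cycling cells had a median of 29250 UMIs against 18264 before thinning, and the part of doublets in these values was not tested.

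Within the Ucma-led cluster the PTH library had the higher G2/M level, 866 CPM against 570 CPM in the control. Of 23 G2/M members 15 were at least 1.5-fold higher in PTH, and of 11 S members 6, where 6.17% of 8964 genes were, and none was lower, where 4.72% of genes were. Top2a stood at 109 against 54.3 CPM (20 of 166 against 40 of 408 cells) and Mki67 at 65.03 against 30.01 CPM (12 of 166 and 19 of 408 cells), while Cenpa did not differ beyond counting error (51.9 against 57.3 CPM, ratio 0.904, 0.756 to 1.08). In PTH 1 cell held 20.8% of the G2/M UMIs of this cluster, and the shares of cells overlapped. S members stood at 205 CPM in PTH and 152 CPM in the control.

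In the neighbouring cluster led by Ibsp, Mmp13 and Spp1, which carried chondrocyte and osteoblast markers together and stayed unnamed, 3 of 154 control, 5 of 116 PTH and 2 of 31 YKL cells carried several G2/M genes. These shares (1.95%, 4.31% and 6.45%) have overlapping intervals, and the highest is that of YKL. By UMIs the G2/M members stood at 159, 724 and 525 CPM, and 1 cell held 37.4%, 42.8% and 73.5% of them.

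Macrophage- or osteoclast-like cells carried several G2/M genes in 14 of 128 control (10.9%, 6.11 to 17.7%), 11 of 81 PTH (13.6%, 6.98 to 23%) and 7 of 18 YKL cells (38.9%, 17.3 to 64.3%). Several S genes were found in 7, 7 and 6 of them. The YKL interval overlaps that of PTH and, narrowly, that of the control. Median UMIs per cell were 7150, 8662 and 30852 before thinning, and their part in the result was not tested beyond thinning. After thinning, Acp5, an osteoclast enzyme, was found in 23 of 38 cells with several genes (60.5%, 43.4 to 76.0%) and in 66 of 189 of the rest (34.9%, 28.1 to 42.2%), but Ctsk, the osteoclast protease cathepsin K, in 7 of 38 (18.4%, 7.74 to 34.3%) and 42 of 189 (22.2%, 16.5 to 28.8%), and C1qa, a macrophage gene, in 14 of 38 and 83 of 189. By summed UMIs at full depth Acp5 itself was lower in the cells with several genes, 1890 against 4395 CPM, and so were the osteoclast markers together, 3852 against 9706 CPM. The share of cells and the level of Acp5 thus point in opposite directions, and no order is read from either. Col2a1, which these cells should lack, was found in 16 of 38 and 80 of 189, so the share with cartilage RNA was about the same in both. Birc5 stood at 133, 145 and 328 CPM in control, PTH and YKL, from 18, 19 and 10 cells. In PTH against the control, 6 of 18 G2/M and 2 of 11 S members were at least 1.5-fold higher, where 18.1% of 5053 genes were, and 1 G2/M member, Nusap1, was lower, where 8.53% were. The YKL library had under 50 of these cells, so no member was compared there.

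In endothelial-like cells PTH was the library with the lowest G2/M levels. Several G2/M genes were found in 15 of 170 control (8.82%, 5.02 to 14.1%), 11 of 272 PTH (4.04%, 2.04 to 7.12%) and 5 of 49 YKL cells (10.2%, 3.40 to 22.2%), and several S genes in 12, 14 and 1. Top2a stood at 82.4 CPM in the control, 25.8 in PTH and 88.4 in YKL, from 21, 23 and 8 cells, and Ube2c at 77.5, 17.6 and 88.4 CPM, from 19, 18 and 7 cells. In PTH against the control 11 of 16 G2/M members were at least 1.5-fold lower, where 3.7% of 7674 genes were, and none was higher, where 8.46% were; no S member of 9 was past 1.5-fold in either direction. In YKL against the control 8 of 15 G2/M members were higher, where 12.8% of 5397 genes were, and none was lower, where 6.73% were. In YKL against PTH 16 of 16 G2/M and 1 of 6 S members were higher, where 8.38% of 6922 genes were, and none was lower, where 9.49% were. The intervals of the cell shares overlap between all pairs of libraries, and 1 cell held 20.3%, 18.0% and 46.6% of the G2/M UMIs of the class in control, PTH and YKL. Pcna was nearly level at 63.7, 67.1 and 71.4 CPM, and Tyms stood at 64.4, 48.3 and 88.4 CPM.

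Fibroblast-like cells had 2 of 114 control (1.75%), 7 of 305 PTH (2.30%) and 0 of 17 YKL cells with several G2/M genes. In PTH against the control, 5 of 17 G2/M and 2 of 8 S members were at least 1.5-fold higher, where 9.25% of 8120 genes were, and 1 S member, Mcm7, was lower, where 6.83% were. In these cells 1 cell held 72.8% of the G2/M UMIs in the control and 30.2% in PTH.

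The 2 G1 regulators marked different cells. Cdkn1a, which codes for the inhibitor p21, stood at 509, 558 and 684 CPM in chondrocyte-like cells of control, PTH and YKL and was found in 1206 of 1467, 557 of 665 and 393 of 409 cells. In the unnamed Ibsp-led cluster it stood at 575, 647 and 632 CPM. Over the endothelial-, macrophage-, neutrophil-, fibroblast-, pericyte- and tendon-like classes its level ran from 33.6 CPM in control fibroblast-like cells to 335 CPM in PTH neutrophil-like cells, among groups of at least 15 cells. Within the class it followed the clusters: 138 CPM in the control and 126 CPM in PTH in the Ucma-led cluster, 780, 891 and 791 CPM in the Col10a1-led cluster, and 1313, 1394 and 1290 CPM in control, PTH and YKL in the cluster with 2610528A11Rik and Bnip3 among its leading genes. In YKL against the control the ratio for the class was 1.34 (1.31 to 1.38), but not all clusters shared this direction. In the Col9a3-led cluster YKL lay below the control, 425 against 550 CPM, as in the Hapln1-led cluster, 498 against 606 CPM. Counting intervals did not overlap in either, but the YKL values rest on 26 and 62 cells, against 539 and 112 in the control. Counts from 1 cell are not independent, so the counting intervals of Cdkn1a are narrower than the true error. In the cluster led by Ibsp and Panx3 YKL and control stood at 319 and 312 CPM. YKL and control also lay close in the last 2 clusters above. PTH lay above the control in the Col10a1-led cluster (851 to 932 against 746 to 815 CPM). Chondrocytes with several S or G2/M genes had 185 CPM of Cdkn1a against 576 CPM in the rest, a ratio of 0.322 (0.281 to 0.367), with 0.385 in the control and 0.283 in PTH taken alone. Within the Ucma-led cluster the same comparison gave 124 against 135 CPM, a ratio of 0.917 (0.747 to 1.11), so there the difference was within counting error.

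Ccnd1, cyclin D1, was low in chondrocyte-like cells, at 4.30, 6.55 and 2.47 CPM in control, PTH and YKL, from 86, 62 and 26 cells. It stood at 170, 223 and 235 CPM in endothelial-like cells, at 95.4 and 128 CPM in control and PTH pericyte-like cells, and at 63.4, 125 and 113 CPM in macrophage- or osteoclast-like cells. In the unnamed Ibsp-led cluster it stood at 19.2, 52.7 and 123 CPM, from 15, 26 and 10 cells. Of the other D cyclins, Ccnd2 had 48.9, 37.1 and 30.3 CPM and Ccnd3 62.3, 53.9 and 42.8 CPM in the 3 libraries.

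**Figure D5:**
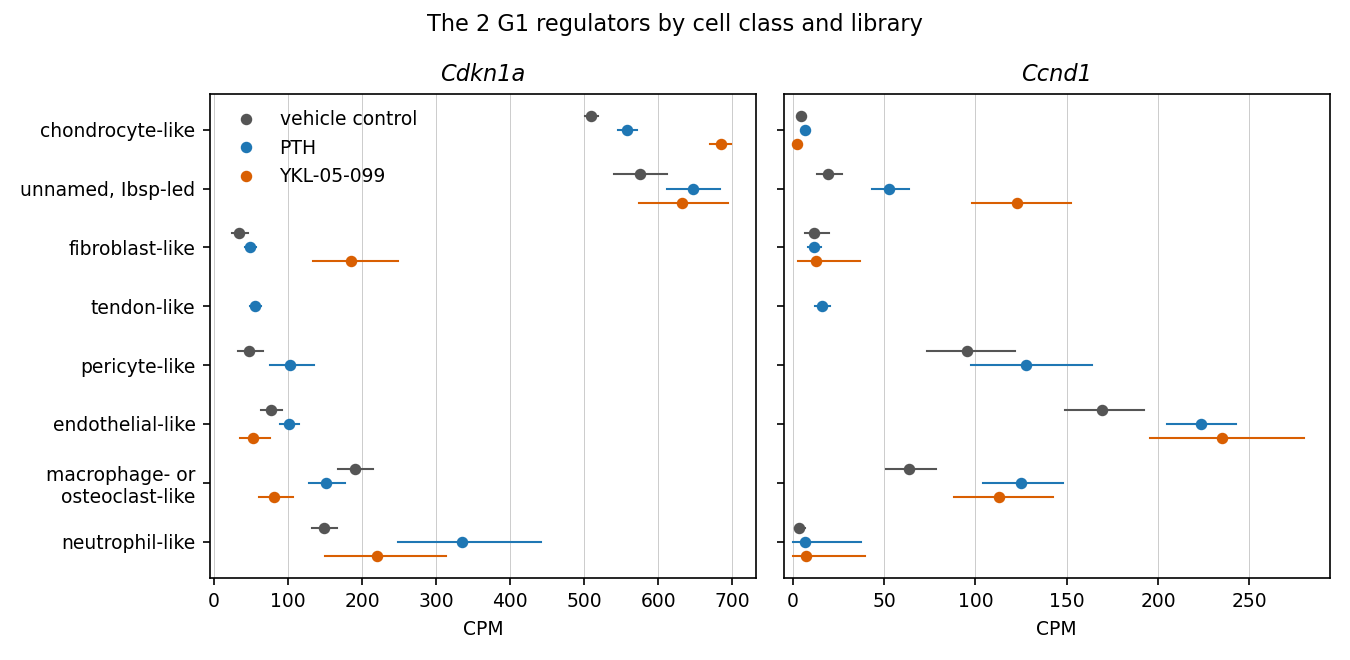
Levels (CPM, linear axes) of Cdkn1a and Ccnd1 by cell class and library, with exact 95% counting intervals, for groups of at least 15 cells. Cdkn1a is highest in chondrocyte-like cells (509 to 684 CPM) and the Ibsp-led cluster, and Ccnd1 in endothelial-like cells (170 to 235 CPM).

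Other cycle genes outside the 42 were also higher in the chondrocytes picked by the members. In the 43 chondrocytes with several S or G2/M genes, 76 of 76 other G2/M genes with at least 50 UMIs and 34 of 36 other S genes were at least 1.5-fold higher than in the other 2447, where 24.9% of 11907 genes were. Median log2 ratios were 6.65 and 2.65, against 0.11 for all genes. The cells were chosen by cycle members and were the deeper cells, so the counts of these lists are a description. H2afz, a histone variant, stood at 2966 against 266 CPM, Tubb5, a β-tubulin, at 1246 against 251 CPM, and Dut, which clears dUTP, at 230 against 61.1 CPM. Of 20 genes of arrest and exit from the cycle, 5 were higher and 7 lower in these cells, where 14.8% of all genes were lower. In the control alone 6 of 20 were higher and 6 lower, and in PTH alone 5 of 19 and 8. The share over all genes was not taken within a library. Lower over all libraries were Cdkn1c, coding for p57, at 213 against 573 CPM (ratio 0.372), and the antiproliferative genes Btg1 and Btg2, with ratios of 0.437 and 0.470. Within the Ucma-led cluster these ratios were 0.479 for Cdkn1c, 0.849 for Btg1 and 0.719 for Btg2. Higher, and chosen after their values were seen, were the kinase inhibitors Cdkn2c and Cdkn2d, at 144 against 15.0 CPM and 222 against 22.2 CPM. Gadd45b did not differ beyond counting error (491 against 481 CPM, ratio 1.02, 0.939 to 1.11). The values of single genes in this paragraph pool the libraries, and YKL gave 1 of the 43 cells and 399 of the 2447 others. The part of this library makeup in them was not tested.

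Between libraries these lists were less uniform than the members. In chondrocyte-like cells of YKL against the control, 48 of 67 other G2/M genes were at least 1.5-fold lower and 4 higher, and 10 of 35 other S genes were lower and none higher, where 9.3% of all genes were lower and 9.69% higher. Of the 4 other G2/M genes with most UMIs, H2afz was lower (231 against 398 CPM), Tubb4b was higher (482 against 265 CPM), and Hmgb1 (569 against 423 CPM) and Tubb5 (282 against 245 CPM) stayed within 1.5-fold. These 4 are also made by cells that do not divide. Of the 20 arrest genes 6 were higher and 4 lower in the same comparison, with Cdkn1c at 810 against 387 CPM and Btg2 at 347 against 164 CPM. In PTH against the control, 29 of 76 other G2/M genes were higher and none lower, 5 of 35 other S genes were higher and 2 lower, where 5.7% of all genes were higher and 3.36% lower. Cdkn1c stood at 661 CPM in PTH. The other G1 genes were mostly within 1.5-fold: 1 of 11 was lower in PTH (Cdk6, 42.8 against 74.3 CPM) and 2 of 11 in YKL (Ccnd2 and Skp2, the latter named after its value was seen).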

How the data were processed

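Droplet libraries of callus cells were made with a 3′ v3 kit, per the labels' protocols. The deposited matrices hold whole UMI counts, unnormalized; Cell Ranger 4.0.0 wrote them, per the file headers. Seurat and mm10 stand in the submitters' processing notes. Starting from 8021 control, 5286 PTH and 1500 YKL barcodes (55250651, 33981167 and 19424073 UMIs), barcodes under 500 genes or above 10% mitochondrial UMIs were dropped, then those marked by Scrublet (scanpy 1.11.5). Cells were scaled to 10000 UMIs. Clusters came from 2000 variable genes, 30 components, 15 neighbours and Leiden resolution 0.8, leaving out 170 cycle genes and 64 histone genes. Clusters were named from markers of 17 classes by mean log2 folds over the cluster median with 10 CPM added. At least 3 markers had to be found in at least 10% of cells, and a lead of at least 1.0 over the next class was required. These naming rules were set after seeing the data. Cells were thinned to 2000 UMIs for counting, while CPM and ratios used full depth. Ratios were taken in classes of at least 50 cells for genes with at least 50 UMIs, and counts under 3 were raised to 3 when genes past 1.5-fold were counted and medians taken. Shares carry exact Clopper-Pearson intervals (a share of 0 in text is given the limit of 3 counts of its total), CPM exact Poisson intervals and ratios exact conditional binomial intervals at 95%. No test between groups was run. All 42 members were reported by phase, and the 4 with most UMIs per phase, and up to 4 genes of each other list, were named in full. Tested on simulated data, 100% of genes changed 3-fold came out past 1.5-fold in both PTH against control (11329 genes) and YKL against control (11345 genes). Of unchanged genes 1.85% and 1.76% also came out past 1.5-fold, and the ratio intervals of sampled unchanged genes held 1 in 95.15% and 92.9% of cases. The simulated counts were drawn independently from summed libraries without cells, and the changed genes were picked well above the limit of 50 UMIs. These rates therefore do not cover members whose UMIs lie in few cells. The members and lists were chosen with earlier results of these data known. Alternatives of 14 kinds were tried.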

Additional observations from a re-analysis of the deposited data

Results flagged for a closer look

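Barcodes left out for mitochondrial UMIs above 10% also held cycling cells. After thinning to 2000 UMIs, 8 of 255 such control barcodes carried several G2/M genes (3.14%, exact 95% interval 1.36 to 6.09%) and 4 several S genes (1.57%). In the PTH library 13 of 247 carried several G2/M genes (5.26%, 2.83 to 8.83%) and 6 several S genes (2.43%). In the YKL library 1 of 37 carried several genes of each phase. The kept cells of control and PTH stood at 3.12% and 3.47% for G2/M and at 1.41% and 1.98% for S. These values drew attention because the counts lie above the 3 that a count of 0 allows, in barcodes that no comparison above uses.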

How the results depend on the processing

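For chondrocyte-like cells 15 results were recomputed under 17 settings, which gave 186 values, of which 116 lay close to those above and 70 did not. Values are in the order control, PTH, YKL, and counts are of members at least 1.5-fold apart. No thinning gave several G2/M genes in 3.27% (control) and 4.4% (YKL) of cells and several S genes in 17.9%, 25.1% and 42.8%. Thinning to 5000 UMIs gave S 2.52%, 3.17% and 2.58%. At least 2 members gave S 2.08%, 2.46% and 2.25%, and at least 5 gave 0.0694% and 0.154% (control, PTH).

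Cycle genes kept in clustering gave G2/M 0%, 0% and 0%, S 0.134% in PTH, and G2/M shares of UMIs of 21.0%, 20.9% and 18.7%, because cells with these genes then formed a cluster of 135 cells (58, 64 and 13) that was left unnamed. Counts there were 3 of 23 members higher and 2 lower in PTH than control, where 6.88% and 3.08% of genes were. In YKL against control 3 of 23 were higher and 3 lower, where 9.71% and 8% were. In YKL against PTH 1 of 19 was higher and 3 lower, where 5.94% and 7.63% were. At most 5% mitochondrial UMIs gave G2/M 0.424% and 0% (control, PTH), S 0% in PTH and shares of 45.1%, 18.3% and 37.8%. Of 15 members 1 was higher and 6 lower in PTH than control, where 5.12% and 5.86% of genes were. Of 17 members 1 was higher and 2 lower in YKL than control, where 7.23% and 6.94% were. Of 7 members 1 was higher and 0 lower in YKL than PTH, where 6.05% and 4.61% were. Fewer members were tested there, and the cause was not tested.

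At least 200 genes per cell gave shares of 63.2%, 71.8% and 35.4%. Of 41 members 23 were higher and 0 lower in PTH than control, where 8.29% and 2.8% of genes were. Of 40 members 2 were higher and 27 lower in YKL than control, where 10.1% and 8.36% were. At least 1000 genes gave shares of 67.1%, 75.01% and 43.4%, and S 1.17% in YKL. Of 40 members 23 were higher and 0 lower in PTH than control, where 8.58% and 3.38% of genes were. Without the cell with most S and G2/M UMIs shares were 63.3%, 65.97% and 18.8%. Ratios from thinned cells gave 1 of 8 members higher and 0 lower in PTH than control, where 5.06% and 6.79% of genes were. In YKL against control 1 of 4 was higher and 1 lower, where 9.03% and 13.1% were. In YKL against PTH 0 of 3 were higher and 0 lower, where 7.69% and 8.14% were.

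Another random thinning and both changes of the class were chosen after seeing the data. With mixed chondrocyte clusters kept, shares were 63.3%, 71.8% and 35.7%. Of 40 members 2 were higher and 27 lower in YKL than control, where 10.1% and 8.17% of genes were. Without the Ucma-led cluster G2/M was 0.387% and 0.826% and shares 43.8% and 49.5% (control, PTH), and S 0.207% in PTH. Of 30 members 7 were higher and 2 lower in PTH than control, where 5.12% and 4.09% of genes were. Of 29 members 1 was higher and 13 lower in YKL than control, where 8.38% and 6.79% were. Of 26 members 1 was higher and 13 lower in YKL than PTH, where 6.22% and 4.98% were. No paired analysis was possible because each group is 1 library. With few cycling cells per class, counting error limits every share.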
